A study of Mus musculus with 12 samples.

Results

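A set of 9 genes of the complement system was followed through 4 ways of preparing myeloid cells from the mouse brain. They are C1qa, C1qb and C1qc, which encode the chains of C1q. C3 encodes the central complement protein, C3ar1, C5ar1 and C5ar2 encode the receptors for the C3a and C5a fragments, and Itgam and Itgb2 encode the chains of complement receptor 3. They were taken by symbol, with no measured value in the rule, and are 9 of the 31053 genes listed. All 9 were found, and 8 of them passed the filter on low counts. C3 did not.

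Complement is a cascade of plasma and tissue proteins that tags particles and cells. C1q starts the classical pathway by binding to its targets, and cleavage of C3 leaves fragments on the surface that complement receptor 3 recognises. The small fragments C3a and C5a act on receptors that steer and activate phagocytes. In the brain, microglia are the main source of C1q, and complement is best known there for the removal of synapses in development and disease.

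The cells came from whole brains of 12 male C57BL/6J mice at postnatal day 90, with 1 library per mouse and 3 mice in each group. Tissue was dissociated either in a cold Dounce homogenizer (DNC) or by warm digestion with enzymes (ENZ), each with inhibitors (INHIB) or without them (NONE). The inhibitors were actinomycin D and triptolide, which block transcription, and anisomycin, which blocks translation. All cells were sorted as CD45+ and CD11b+. CD11b is the protein that Itgam encodes, so every cell measured here had already been selected on the product of a member gene. The labels placed DNC-NONE 1 and 2, DNC-INHIB 4, ENZ-NONE 4 and 5 and ENZ-INHIB 1 in batch 1 and the other 6 libraries in batch 2.

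Values are counts of unique molecular identifiers (UMIs), each standing for 1 captured transcript 3' end, and levels are given as CPM, the UMIs of a gene scaled to the same total in every library or cell class. They are not per gene length, so levels are compared between samples and cells and not between genes. The 18826 cells kept held 26845321 UMIs, from 1059783 to 3233159 per library. Of 18590 distinct barcodes among them, 236 occurred in more than 1 library. Ptprc, which encodes the CD45 used in the sort, was at 162 to 218 CPM, and the 12 microglia markers summed to 36730 to 42686 CPM. Libraries that stood apart were ENZ-NONE 6, with 42.2% of its cells in a cluster led by Fos and Adamts1 against 0.215% to 9.79% in the others, and DNC-NONE 1 and DNC-NONE 3. DNC-NONE 1 had the largest share of monocyte-like cells (1.79%), and DNC-NONE 3 held 5 of the 12 neutrophil-like cells of the whole series.

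The 3 chains of C1q lie side by side on the minus strand of chromosome 4 within 18675 bases (GRCm38), with C1qb at chr4:136880129-136886187, C1qc at chr4:136889804-136893065 and C1qa at chr4:136895917-136898803. All 3 are protein-coding and overlap no other annotated gene. RefSeq promoter sequence (GRCm38.p6) was at hand for 7 of the 9 members, C1qa and Itgb2 being the exceptions. The stretches before the starts of C1qb, C1qc and C3 are shown because C1qb and C1qc followed each other closely across cell classes while C3 went the opposite way, as described further on. Capitals mark GAGGAA or its reverse complement TTCCTC, the core that the myeloid transcription factor PU.1 is known to recognise.

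C1qb, chr4:136886201-136886450, minus strand: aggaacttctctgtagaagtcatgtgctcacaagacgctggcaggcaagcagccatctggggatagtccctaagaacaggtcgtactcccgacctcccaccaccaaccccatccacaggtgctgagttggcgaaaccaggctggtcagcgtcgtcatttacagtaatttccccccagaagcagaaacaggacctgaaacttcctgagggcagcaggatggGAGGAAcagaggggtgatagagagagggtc
C1qc, chr4:136893066-136893164, minus strand: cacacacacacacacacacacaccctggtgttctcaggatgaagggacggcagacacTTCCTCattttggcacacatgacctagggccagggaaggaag
C3, chr17:57228137-57228386, minus strand: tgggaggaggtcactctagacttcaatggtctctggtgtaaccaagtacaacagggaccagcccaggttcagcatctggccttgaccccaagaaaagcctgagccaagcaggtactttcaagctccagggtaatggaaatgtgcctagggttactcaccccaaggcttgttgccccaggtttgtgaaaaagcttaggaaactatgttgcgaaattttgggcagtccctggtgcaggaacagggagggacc

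The 6 letters occurred 1 time in the C1qb stretch, 1 time in the C1qc stretch and in none of the 250 bases before C3. They occurred 2 times in the 250 bases before Itgam, and were absent from the stretches searched before C3ar1 (246 bases), C5ar1 (48) and C5ar2 (250). No other motif was searched. Both strands were read, and 23.3% of the 32851 promoters in the table held them within 250 bases before the start. No binding was measured here, and the matches describe letters only. For C1qc the stretch was kept to the 99 bases outside the gene as GENCODE draws it, so that share does not apply to it directly.

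C1q made up 3.03% of all UMIs in the kept cells, with 813371 UMIs, and at least 2.81% of the UMIs in every library. C1qa ran from 7405 CPM in DNC-NONE 2 to 9500 in ENZ-NONE 6. The range of C1qb was 10468 to 12103, and that of C1qc 9758 to 10889. All 3 chains were seen together in 98.0% to 99.8% of the cells of each library, and 55 of the 18826 cells had none of them.

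No C1q difference between preparations passed the test. The mean level of C1qa was 8159 ± 659 CPM in DNC-NONE, 8865 ± 885 in DNC-INHIB, 8400 ± 953 in ENZ-NONE and 8929 ± 380 in ENZ-INHIB (SD, n = 3 each). C1qb stood at 11173 ± 735, 11172 ± 227, 11101 ± 878 and 11269 ± 638 in the same order of groups. C1qc stood at 10340 ± 500, 10474 ± 142, 10064 ± 272 and 10158 ± 298. The groups of all 3 genes overlapped in every comparison with 1 exception. C1qc was lower in all 3 ENZ-NONE libraries (9758 to 10276) than in all 3 DNC-INHIB libraries (10343 to 10624). Among all genes tested, groups did not overlap in that pair for 15.3%, in either direction. The edgeR log2 differences of C1qc over the 6 pairs of groups ran from -0.04 to 0.02.

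In edgeR's quasi-likelihood test over 9882 genes, with a call needing an adjusted p under 0.05 and a fold over 1.5, none of the 8 members tested was called in any of the 6 pairs of groups. Over all genes, the calls were 0.617% for ENZ-NONE against DNC-NONE, 0.799% for ENZ-NONE against DNC-INHIB and 0.385% for ENZ-NONE against ENZ-INHIB. For DNC-NONE against DNC-INHIB the share was 0%, for ENZ-INHIB against DNC-INHIB 0.152% and for ENZ-INHIB against DNC-NONE 0.101%. The test of whether the inhibitor difference itself differed between digestion and Dounce called 0.172% of genes and no member. With so few genes called in all, a count of 0 among 8 members is close to the background and says little about them.

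Without the fold minimum no member passed either. At an unadjusted p under 0.05 there were 5 member differences in the 6 pairs, namely C5ar1 in 1, C5ar2 in 2 and Itgam in 2. Over all genes tested, 4.72% to 10.5% were under that p in each pair, and the 5 differences, over 8 members tested in each of 6 pairs, are near that background. DESeq2 called no member. The intervals say how large a difference could have gone unseen. The 95% intervals of the log2 fold change over the 6 pairs lay between -0.34 and 0.35 for C1qa, -0.17 and 0.21 for C1qb, and -0.17 and 0.16 for C1qc. For C3ar1 they lay between -0.22 and 0.26 and for Itgb2 between -0.28 and 0.25. For Itgam they lay between -0.32 and 0.51, so a 1.5-fold difference lay outside the intervals of these 6 genes. It lay within those of C5ar1 (-0.65 to 0.98) and C5ar2 (-0.86 to 0.71).

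**Figure D1:**
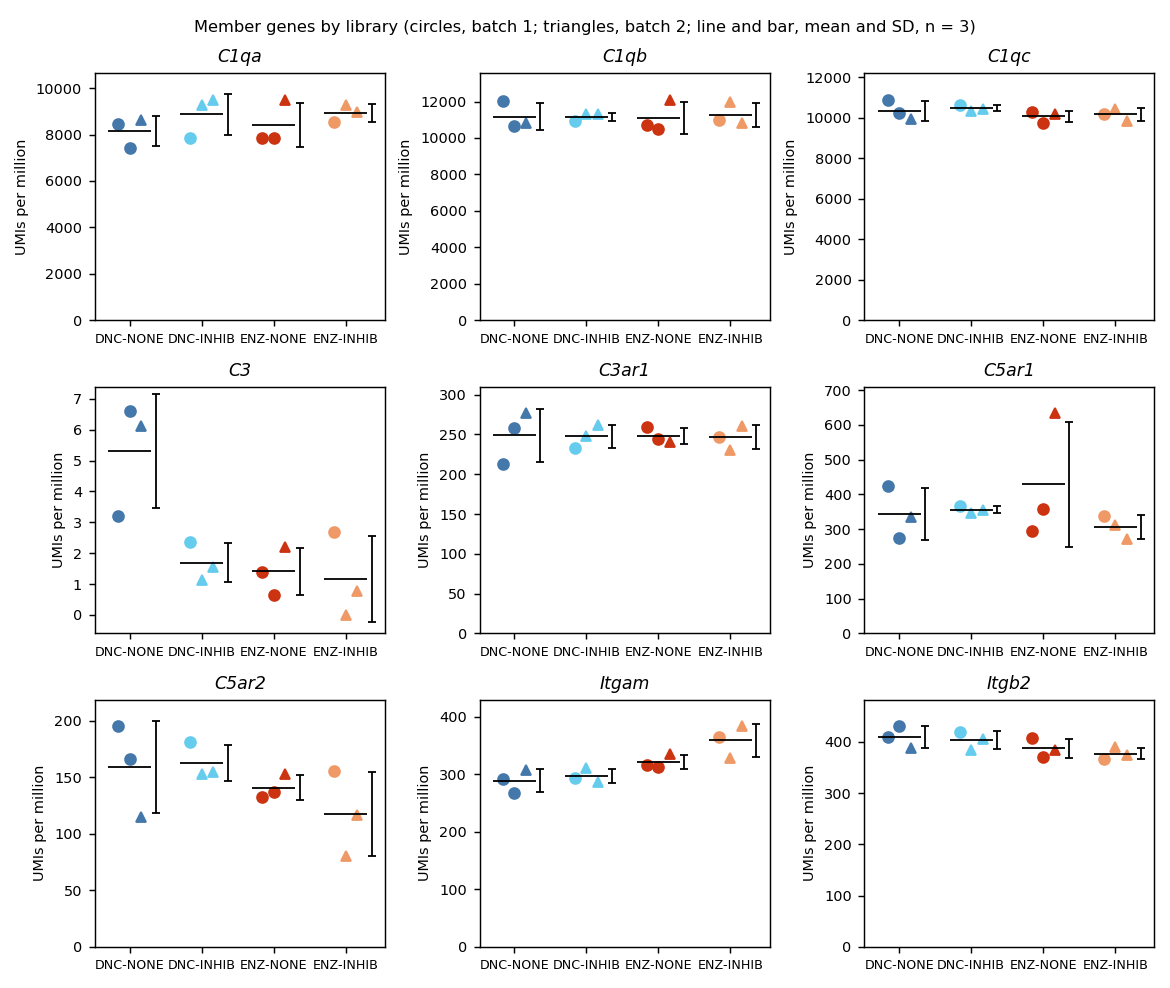
Level of each member in CPM of the library (vertical axes, from 0 except for C3, where the axis starts below 0 to show the SD) in the 3 libraries of each of the 4 groups. Circles are batch 1 and triangles batch 2, and the line and bar give the mean and SD. C1q, C3ar1 and Itgb2 lie nearly level across groups, C5ar1 has 1 high library (ENZ-NONE 6, 634), and all 6 digested libraries lie above all 6 Dounce libraries for Itgam. The share of all genes separated like Itgam was not counted.

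C1qa was the member that followed the batch of the library. It ran from 7405 to 8532 CPM in the 6 libraries of batch 1 and from 8631 to 9500 in the 6 of batch 2, with no overlap. The share of all genes without overlap between the batches was not counted. In a fit with group and batch, C1qa was 1.17-fold higher in batch 2 (log2 0.23, SE 0.04, edgeR adjusted p = 0.00491), when 2.84% of genes passed an adjusted p under 0.05 for batch. C1qb (log2 0.10, 95% interval 0.00 to 0.20, edgeR adjusted p = 0.335) and C1qc (log2 0.01, interval -0.06 to 0.09, adjusted p = 0.915) did not pass, nor did the other 5 members tested, whose lowest adjusted p was 0.278 (C5ar2).

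The ratio of C1qb over C1qa uses the same C1qa counts, so it is no separate result. It was 1.285 to 1.44 in batch 1 and 1.19 to 1.292 in batch 2, and the batches thus just overlapped. The C1qa difference had nearly the same size in microglia-like cells alone (log2 0.22) and after each cell was thinned to 1000 UMIs (log2 0.23). What the batches differed in was not tested. This fit was added after the values had been seen. Within batches, mean C1qa in DNC-NONE, DNC-INHIB and then ENZ-NONE and ENZ-INHIB was 7922, 7851, 7850 and 8532 CPM in batch 1 and 8631, 9371, 9500 and 9127 in batch 2. Each of these values rests on 1 or 2 libraries.

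Itgam encodes integrin alpha M, the CD11b chain of complement receptor 3 (chr7:128062640-128118491, plus strand). Its levels were 292, 267 and 307 CPM in DNC-NONE 1, 2 and 3, and 294, 310 and 287 in DNC-INHIB 4, 5 and 6. They were 316, 313 and 335 in ENZ-NONE 4, 5 and 6, and 365, 328 and 384 in ENZ-INHIB 1, 2 and 3. Every digested library was thus above every Dounce library, with 310 the highest of the Dounce libraries and 313 the lowest of the digested ones. The share of all genes separated in this way was not counted, so this order is a description only.

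The groups of Itgam did not overlap in all 4 pairs of a digested with a Dounce group. Among all genes tested, groups did not overlap in either direction for 12.5% in ENZ-NONE against DNC-NONE, 15.3% in ENZ-NONE against DNC-INHIB, 15.5% in ENZ-INHIB against DNC-INHIB and 14.7% in ENZ-INHIB against DNC-NONE. Of the 8 members, 1, 2, 2 and 1 did not overlap in those pairs, and none in ENZ-NONE against ENZ-INHIB (10.7% of all genes) or DNC-NONE against DNC-INHIB (9.97%).

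The largest difference of Itgam was 1.25-fold, in ENZ-INHIB over DNC-NONE (log2 0.32, 95% interval 0.12 to 0.51), with an edgeR adjusted p = 0.187. ENZ-INHIB over DNC-INHIB came to log2 0.28 (interval 0.09 to 0.47, edgeR adjusted p = 0.345), and ENZ-NONE over DNC-NONE to 0.20 (interval 0.00 to 0.39, adjusted p = 0.583). None passed the correction over all genes. Without any 1 library the first of these stayed between 0.26 and 0.38. In batch 1 the level was higher in ENZ-INHIB (365, 1 library) than in DNC-NONE (280, mean of 2). In batch 2 it was also higher in ENZ-INHIB (356, mean of 2) than in DNC-NONE (307, 1 library).

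Thinned to 1000 UMIs per cell, 29.0% ± 2.23 of ENZ-INHIB cells had an Itgam UMI, against 26.2% ± 0.876 in ENZ-NONE and 24.6% ± 1.11 in DNC-NONE (SD, n = 3), and the DNC-INHIB libraries lay between 24.1% and 26.1%. By this share of cells the digested libraries did not stand apart from all Dounce libraries, since ENZ-NONE (25.2% to 26.9%) overlapped both Dounce groups (up to 26.1%). In UMIs per thinned cell, ENZ-NONE (0.311 to 0.330) was above DNC-NONE (0.274 to 0.307). There DNC-INHIB (0.282 to 0.323) overlapped both ENZ-NONE and ENZ-INHIB (0.318 to 0.382). Itgam shares bases with Gm49368, a gene annotated on its own strand, and reads fitting both would not have been counted. The listed Gm49368 itself had 218 UMIs beside 8544 for Itgam. Since the sort used the CD11b protein, the part that the gate played in these levels was not tested.

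Itgb2, the CD18 chain that pairs with CD11b and with other leukocyte alpha chains (chr10:77530252-77565708, plus strand), did not follow Itgam. Its means were 409 ± 21.4, 403 ± 17.7, 387 ± 18.6 and 377 ± 11.2 CPM in DNC-NONE, DNC-INHIB and then ENZ-NONE and ENZ-INHIB. The groups overlapped in every pair, and its log2 differences ran from -0.11 to 0.07.

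C3ar1, the receptor for C3a (chr6:122847138-122856161, minus strand), was the most even of the receptors for C3a and C5a. It stood at 249 ± 33.1, 248 ± 14.5, 248 ± 9.97 and 246 ± 15.3 CPM in DNC-NONE, DNC-INHIB and then ENZ-NONE and ENZ-INHIB. Its log2 differences between groups ran from 0.00 to 0.04, and no library fell outside 212 to 277.

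**Figure D2:**
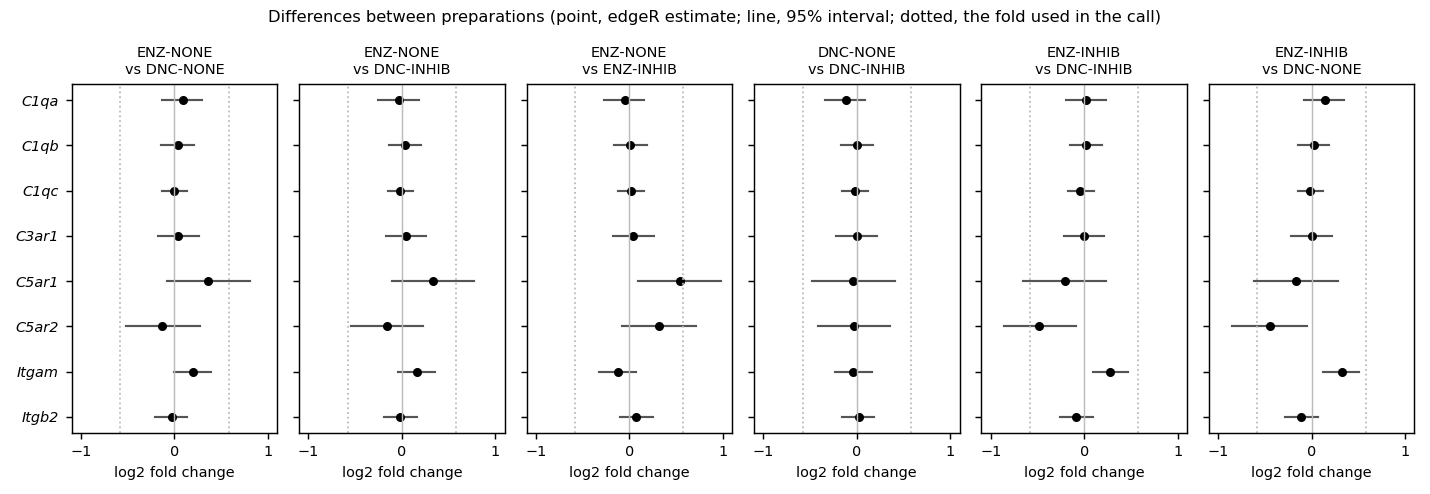
Log2 fold change of the 8 members tested (rows) in the 6 pairs of groups (panels), as the edgeR estimate (point) with its 95% interval (line), and the fold used in the call as dotted lines. The 3 C1q genes, C3ar1 and Itgb2 stay near 0 with narrow intervals, Itgam lies at 0.28 and 0.32 in the 2 comparisons of ENZ-INHIB with Dounce, and the intervals of C5ar1 and C5ar2 are the widest.

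C5ar1, the receptor through which C5a attracts and activates phagocytes, and C5ar2, a second C5a receptor that does not couple to G proteins, are neighbours on the minus strand of chromosome 7 (chr7:16246743-16259540 and chr7:16234585-16244154), 2589 bases apart. C5ar2 overlaps Gm26473, annotated on its strand. C5ar1 was at 423, 275 and 335 CPM in DNC-NONE 1, 2 and 3, and at 366, 346 and 356 in DNC-INHIB 4, 5 and 6. It was at 295, 357 and 634 in ENZ-NONE 4, 5 and 6, and at 338, 311 and 271 in ENZ-INHIB 1, 2 and 3. ENZ-NONE 6 stood far above the rest, and the other 2 ENZ-NONE libraries lay within the range of the other groups. The ENZ-INHIB libraries (271 to 338) were all below the DNC-INHIB libraries (346 to 366), a pair in which groups did not overlap for 15.5% of all genes tested.

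The largest difference of C5ar1 was 1.45-fold, in ENZ-NONE over ENZ-INHIB (log2 0.54, 95% interval 0.09 to 0.98, edgeR adjusted p = 0.838). Without ENZ-NONE 6 it came to log2 0.10. ENZ-NONE over DNC-NONE was 0.36 with all libraries and -0.07 without ENZ-NONE 6. The interaction of digestion and inhibitors was 0.57 (SE 0.30, edgeR adjusted p = 1) and 0.14 without that library. These differences of C5ar1 thus rested on 1 mouse. ENZ-NONE 6 is the only ENZ-NONE library of batch 2. Within batch 1 the ENZ-NONE mean (326) was below the DNC-NONE mean (349), with 2 libraries in each.

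The 2 libraries with the highest C5ar1 also had the largest shares of the Fos- and Adamts1-led microglia-like cluster, but below them the order did not hold. DNC-INHIB 4, next in C5ar1 at 366 CPM, had 0.843% of its cells there, and ENZ-NONE 4, at 295 CPM, had 2.67%. The cluster had 1104 cells, of which 738 were from ENZ-NONE 6 and 180 from DNC-NONE 1 (C5ar1 634 and 423 CPM). In ENZ-NONE 6, C5ar1 was at 830 CPM in that cluster and 469 in the remaining microglia-like cells. In DNC-NONE 1 the values were 652 and 411, and in ENZ-INHIB 1, with 45 such cells, 866 and 326. In ENZ-NONE 4 (42 cells, 246 and 296) and ENZ-NONE 5 (38 cells, 322 and 357) the cluster was not higher. The remaining microglia-like cells of ENZ-NONE 6 were still above those of every other library, which ran from 270 to 411. The part of these cells in the C5ar1 difference was not tested further.

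C5ar2 was at 195, 166 and 115 CPM in DNC-NONE 1, 2 and 3, and at 181, 152 and 154 in DNC-INHIB 4, 5 and 6. It was at 132, 137 and 153 in ENZ-NONE 4, 5 and 6, and at 155, 80.7 and 116 in ENZ-INHIB 1, 2 and 3. The groups overlapped in all 6 pairs, and ENZ-INHIB 2 was the lowest library.

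ENZ-INHIB was lower than DNC-INHIB by a log2 difference of -0.48 (95% interval -0.86 to -0.09, edgeR adjusted p = 0.463) and than DNC-NONE by -0.45 (interval -0.85 to -0.05, adjusted p = 0.414). Without ENZ-INHIB 2 these values were -0.27 and -0.24. In batch 2, C5ar2 was 129 CPM on average against 161 in batch 1, without passing the test (edgeR adjusted p = 0.278).

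The receptors spanned a wider range of levels across microglial clusters. Clustering, with the members and other complement genes left out, gave 6 microglia-like clusters with 17948 cells (95.3%). In the largest of them, with 6312 cells and led by Zfp691, Slc39a1 and Notch2, C5ar2 was at 254 CPM (exact Poisson 95% interval 244 to 265). In the next 3, with 5552, 3357 and 1197 cells, it was at 70.2 (64.1 to 76.7), 80.6 (73.2 to 88.5) and 94.1 (79.7 to 110). C5ar2 was higher in the largest cluster than in each of these in 12 of 12 libraries. Median depth per cell was 1340 UMIs in the largest cluster and 1213, 1559 and 1273 in the next 3.

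C5ar1 did not share this split, with 308, 339, 315 and 358 CPM in the same 4 clusters. It was at 754 (714 to 797) in the Fos-led cluster, pooled, of which ENZ-NONE 6 gave 974 of the 1269 C5ar1 UMIs. Of the 5 libraries with at least 20 cells there, 4 were above their own cells of the largest cluster, with ENZ-NONE 5 nearly equal (322 and 321) and ENZ-NONE 4 below (246 and 254). In the smallest microglia-like cluster C5ar1 was at 918 (849 to 990). That cluster had 426 cells and was led by Spp1, Lpl and Cst7, genes known from microglia of development and disease. C3ar1 reached 691 CPM (632 to 754) there, against 222 to 272 in the other 5 clusters. In that small cluster both receptors were above each of the first 4 clusters in 12 of 12 libraries.

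Clusters were made from the same cells, so these values are descriptions and no test was run on them. C1q varied little across the same 6 clusters, C1qa from 8422 to 9244, C1qb from 10973 to 12145 and C1qc from 9513 to 10803 CPM. Itgam ran from 268 in the Spp1-led cluster to 344, and Itgb2 from 381 to 454. The C5ar2 level per library ran from 136 to 328 in the largest cluster and from 51.8 to 92.5 in the second largest, with no overlap.

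**Figure D3:**
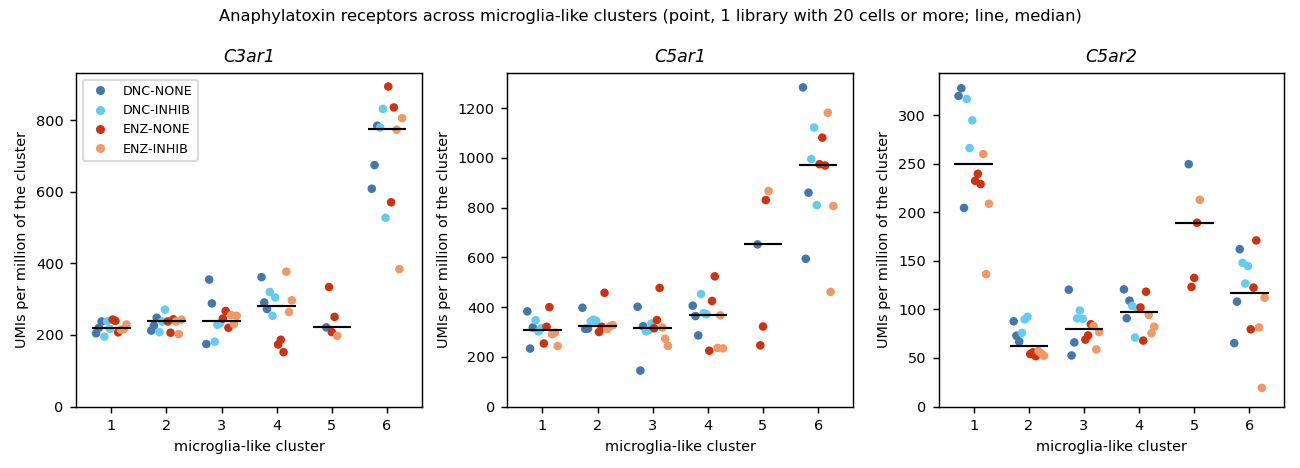
C3ar1, C5ar1 and C5ar2 in CPM of the cluster (vertical axes) in the 6 microglia-like clusters, numbered by size (horizontal axis). Each point is 1 library with at least 20 cells in the cluster, coloured by group, and lines are medians. C5ar2 is split between cluster 1 and clusters 2 to 4, and C3ar1 and C5ar1 rise in cluster 6, in all 4 groups.

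Beside microglia, 311 cells (1.65%) formed a border macrophage-like cluster, led by Pf4, Ms4a7, Mrc1 and F13a1 and by genes of MHC class II. A further 110 cells (0.584%) were named monocyte-like. Border macrophages live in the meninges and around vessels. The cluster that held the monocyte-like cells had 5 neutrophil and 3 monocyte markers (Chil3, Hp and Plac8) among its top 10 genes. Its 12 cells with at least 3 neutrophil marker genes were set apart as neutrophil-like after the data had been seen. The monocyte-like cells had at most 2 neutrophil marker genes each. All 12 monocyte markers were detected among them, against 4 in neutrophil-like cells. The summed level of the monocyte markers did not single them out (11053 CPM, against 13892 in neutrophil-like cells). A cluster of 69 cells led by Cd209a and Gzma was left without a name. Median depth was 1333 UMIs per cell in microglia-like, 1556 in border macrophage-like and 1926 in monocyte-like cells.

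C1q was abundant in border macrophage-like cells too, and with these cells pooled it was somewhat below microglia. C1qa was at 8905 CPM in microglia-like cells and 6953 (exact Poisson 95% interval 6730 to 7183) in border macrophage-like cells. C1qb was at 11491 and 8719, and C1qc at 10511 and 7397. Each chain was lower in border macrophage-like cells in 12 of 12 libraries. A UMI of C1qb was found in 99.0% of them and in 100% of microglia-like cells.

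A finer clustering split the border cells into groups with different C1q levels. In the 96 cells led by Pf4, Mrc1 and Clec4n, with Cd163 and Lyve1 also among the top 10 genes, C1qa was at 9434, C1qb at 10005 and C1qc at 10102 CPM. These cells were not below microglia-like cells for C1qa (interval 8956 to 9932, against 8905). For C1qc the interval (9607 to 10616) included the microglia-like 10511, and for C1qb (9512 to 10517) it was below 11491. In the 215 cells led by H2-Eb1, H2-Aa and Cd74, C1qa was at 5921, C1qb at 8185 and C1qc at 6272.

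Monocyte-like cells had 464 (376 to 566), 535 and 512 CPM of C1qa, C1qb and C1qc. The microglia-like level was 19.2, 21.5 and 20.6 times as high. Thinned to 1000 UMIs, 23.6%, 28.2% and 29.1% of them had a UMI of each chain. The unnamed Cd209a-led cells, at a median of 2479 UMIs, had shares of 14.5%, 24.6% and 27.5%. Unthinned, the exact binomial 95% intervals of the classes overlapped for each chain (27.4% to 46.1% and 16.2% to 38.1% for C1qa). By CPM, the Cd209a-led cells had 209 (147 to 290), 355 (271 to 456) and 390 (302 to 495). The C1qa interval was below that of monocyte-like cells, while those of C1qb and C1qc overlapped theirs (441 to 644 and 419 to 618). Depth differed between these classes, and the monocyte shares are not read as expression. C1qb over C1qa was 1.29 in microglia-like and 1.15 in monocyte-like cells. Whether the latter were UMIs of free microglial RNA was not tested.

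**Figure D4:**
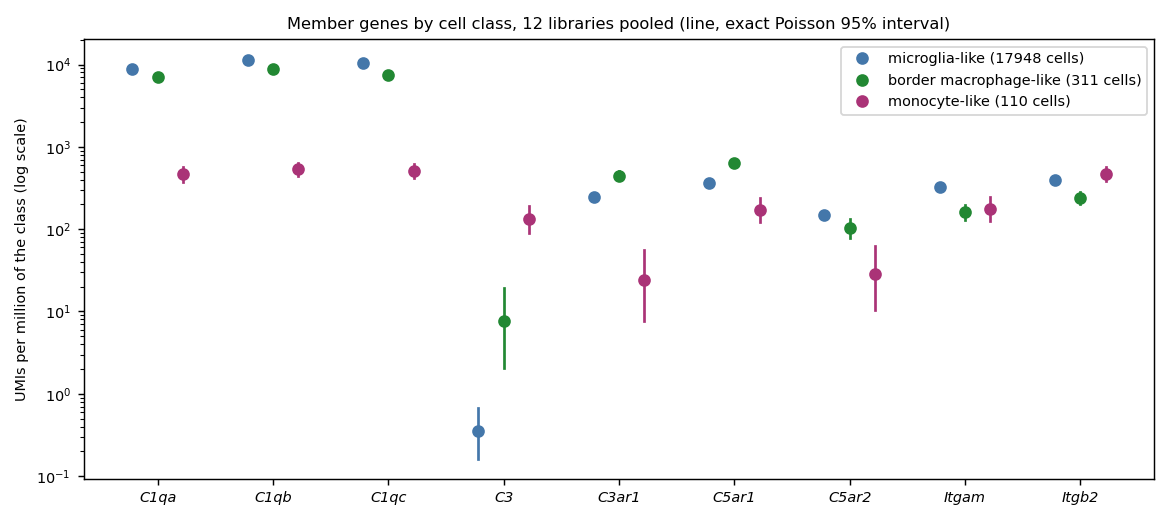
Level of each member in CPM of the class (vertical log axis) in microglia-like, border macrophage-like and monocyte-like cells of the 12 libraries pooled, with exact Poisson 95% intervals as lines. The 3 C1q genes fall in monocyte-like cells, C3 goes the other way, and C3ar1 and C5ar1 are highest in border macrophage-like cells.

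Receptors for the anaphylatoxins were divided between the classes. C3ar1 was at 448 (392 to 509) CPM in border macrophage-like cells and 247 (241 to 253) in microglia-like cells, and was higher in the former in 11 of 12 libraries. C5ar1 was at 632 (566 to 704) and 369 (361 to 376), again higher in 11 of 12. Of the 332 C5ar1 UMIs in border cells ENZ-NONE 6 gave 81, at 1457 CPM, and the median over libraries was 572. C5ar2 went the other way, at 103 (77.3 to 134) and 148 (143 to 153), and was lower in border cells in 11 of 12 libraries. These border values rest on 13 to 42 cells per library.

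The order of the pooled levels held when cells were sorted into classes by marker counts per cell in place of clusters. The 138 cells so chosen as border macrophages had C3ar1 at 472 and C5ar1 at 814 CPM. For C5ar1 the median over libraries was 607 and the highest library 2022. C5ar2 was at 108 (68.2 to 161), and that interval included the 146 of microglia-like cells chosen in the same way. Between the finer border clusters, C5ar1 was at 934 in the Pf4-led and 507 in the H2-Eb1-led cells, while C3ar1 was at 480 and 434. The Pf4-led C5ar1 level had a median of 809 over libraries and a highest of 2622. C5ar2 was at 123 (74.2 to 192) in the Pf4-led cells, and that interval included the microglia-like 148. In the H2-Eb1-led cells it was at 94.4 (65.8 to 131).

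In monocyte-like cells C3ar1 was near the floor, with 5 UMIs in 110 cells (23.9 CPM, 7.76 to 55.8), and so was C5ar2, with 6. C5ar1 was at 172 (120 to 238), with a UMI in 22 of 110 cells (20%, exact binomial 95% upper bound 28.7%). The Cd209a-led cells had no UMI of C5ar1 or C5ar2 in 69 cells, which allows a level of up to 21.5 CPM for each (exact Poisson 95% upper bound). The monocyte C5ar1 level was above that bound.

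The chains of complement receptor 3 also came apart. Itgam was at 325 (318 to 332) CPM in microglia-like, 160 (128 to 198) in border macrophage-like and 177 (124 to 244) in monocyte-like cells. It was lower in border than in microglia-like cells in 12 of 12 libraries. Itgb2 was at 396 (388 to 404), 240 (200 to 286) and 473 (385 to 576). It was lower in border than in microglia-like cells in 12 of 12 libraries and higher in monocyte-like cells in 8 of 12. Only 2 to 33 monocyte-like cells per library stand behind the latter. In the 12 neutrophil-like cells Itgam had no UMI, which allows up to 92.4 CPM, although the sort used its protein, and Itgb2 had 13.

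C3, the central component (chr17:57203970-57228136, minus strand, with the microRNA gene Mir6978 inside it), was scarcely detected in microglia. The kept cells held 56 C3 UMIs in 39 cells, with at most 3 in a cell. Microglia-like cells had 9 of them in 17948 cells, which is 0.355 CPM (0.162 to 0.674).

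Monocyte-like cells had 28 C3 UMIs (134 CPM, 89.0 to 194), found in 19 of 110 cells. Neutrophil-like cells had 14 (431 CPM, 236 to 724), in 7 of 12 cells. Together these 122 cells, 0.648% of all, held 75% of the C3 UMIs. Border macrophage-like cells had 4 (7.62 CPM, 2.08 to 19.5), and the 69 Cd209a-led cells none. In 10 of 12 libraries the level was higher in monocyte-like than in microglia-like cells. The monocyte-like values rest on 2 to 33 cells and 0 to 8 C3 UMIs per library.

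C3 was too low for the main test between preparations. The libraries of DNC-NONE held 8, 7 and 11 C3 UMIs, those of DNC-INHIB 5, 3 and 5, those of ENZ-NONE 3, 1 and 6 and those of ENZ-INHIB 5, 0 and 2. A count of 3 UMIs corresponded to 0.928 to 2.83 CPM of a library. The DNC-NONE libraries, at 3.20 to 6.61 CPM, were above all others, which ended at 2.69. This order rests on at most 11 C3 UMIs per library. How many of all genes were separated in this way was not counted, so it is a description only.

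With the low-count filter left out, C3 was the only member called in any comparison, lower in ENZ-INHIB than in DNC-NONE (log2 -2.23, SE 0.64, edgeR adjusted p = 0.0371), when 1.30% of the 16399 genes then tested were called. DESeq2 did not call it (adjusted p = 0.622). In DNC-NONE, 25 of the 26 C3 UMIs came from monocyte-like and neutrophil-like cells. These made up 33, 6 and 14 cells of DNC-NONE 1, 2 and 3 and 2 to 19 cells of the other libraries. The 10 neutrophil markers summed to 10.8 to 4116 CPM in DNC-NONE and 1.56 to 542 in the other groups, and the 12 monocyte markers to 223 to 391 and 40.9 to 261, with all of both lists detected. The part of these cells in the C3 difference was not tested further. In library sums, fewer such cells and less C3 RNA per cell cannot be told apart.

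**Figure D5:**
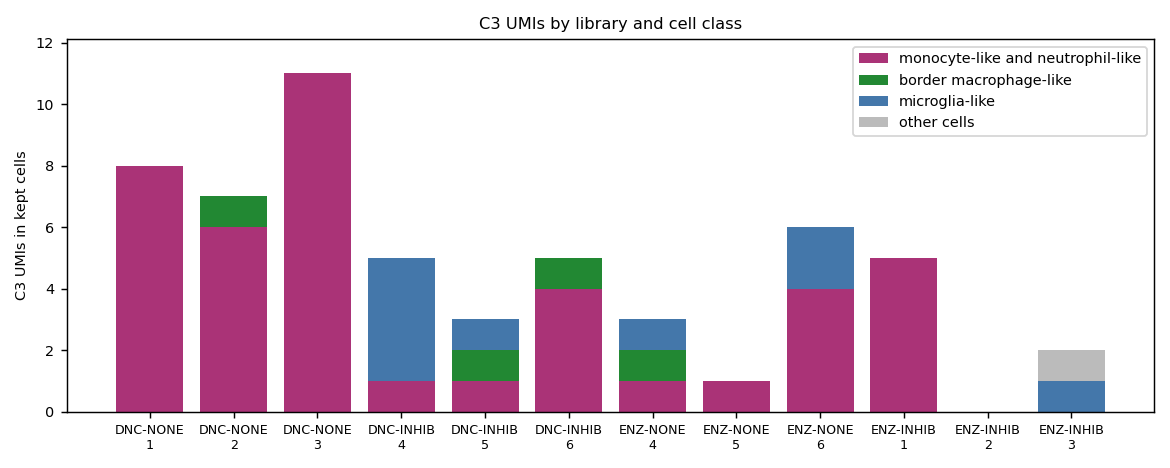
Number of C3 UMIs in kept cells (vertical axis) of each of the 12 libraries, stacked by the class of the cell. Monocyte-like and neutrophil-like cells hold 42 of the 56 UMIs, and 25 of the 26 in DNC-NONE.

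Of 64 further complement genes by role, 63 were listed (C4a was not matched), 24 had no UMI in the kept cells and 12 passed the low-count filter. None of the 12 was called in any pair of groups, and their median log2 fold change was between -0.04 and 0.14 over the 6 pairs, beside 0.00 to 0.01 for all genes. None of the 7 terminal pathway genes passed the filter, and of the 15 listed genes of the classical and lectin start C4b alone did. At an unadjusted p under 0.05 the edgeR test had 6 differences for these 12 genes over the 6 pairs, 3 of C4b, 2 of Cfp and 1 of Itgax, again near the 4.72% to 10.5% over all genes.

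The genes with the highest levels that are given here were mostly receptors and partners. Trem2, a lipid-sensing receptor, was at 2079 CPM on average, and Lair1, an inhibitory receptor that binds collagens and C1q, at 665. Calr (446), Cd33 (256), Lrp1 (144), Cr1l, which encodes the membrane regulator Crry (136), and C1qbp (77.6) followed. Trem2 was at 2159 in microglia-like, 648 in border macrophage-like and 162.5 in monocyte-like cells, and Lair1 at 685, 349 and 100.4.

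A few genes chosen after their values were seen had their highest levels outside microglia. Cfp, which encodes properdin, was at 599 CPM in the Cd209a-led, 296 in monocyte-like and 1.03 in microglia-like cells. C4b was at 95.25 in border macrophage-like and 1.74 in microglia-like cells, and Fcnb, a ficolin, at 1355 in neutrophil-like and 0.0395 in microglia-like cells.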

How the data were processed

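The files the authors deposited hold UMI counts per gene and cell from 10X 3' libraries, made with Cell Ranger 3.0.0 against its mm10 (GRCm38) reference, 1 matrix per mouse, unnormalized. The submitters' notes also name bcl2fastq and Seurat. Cells below 500 genes or 1000 UMIs, or above 10% mitochondrial UMIs, were removed, which left 18830 of 28426. A marker rule removed 4 doublets (0.0212%), too few to have worked, so doublets remain. Replicates differed by more than sampling noise (chi-square per degree of freedom 1.6 or more). The replicates are separate mice.

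Cells were clustered with Leiden (resolution 1, leidenalg 0.10.2, scanpy 1.11.5), with the members, 63 other complement genes and 34 activation genes left out, and named by marker genes (neutrophil-like cells were set apart after the data were seen, and the batch test was added then too). Clusters were described without tests. UMI counts were summed per library and tested with edgeR 4.0.16 (TMM, 4 groups, 9882 genes after filterByExpr, Benjamini-Hochberg adjusted p over all genes). DESeq2 1.42.0 was an alternative. The tests were checked on simulated data. Libraries sharing a replicate number were at most weakly alike (correlation of deviations -0.0997 to 0.175). In ENZ-NONE against DNC-INHIB, numbers 4 and 6 (0.137 and 0.175) were above the highest correlation with another number (-0.0034 and 0.00843). Number 5 (-0.00634, against 0.0484) was not, nor was any number in ENZ-INHIB against DNC-NONE. All 9 members are named, with the 8 highest of the wider list, of which 1 is not reported here, and any gene of it called. Poisson and binomial intervals cover counting error only. The members and lists were chosen with earlier results of these data known.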

Additional observations from a re-analysis of the deposited data

How the results depend on the processing

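The count of called members was 0 in all 7 comparisons with DESeq2 size factors, DESeq2, batch as a covariate, no fold minimum, microglia-like cells only, both looser cell filters, thinning, removal of the top Scrublet scores, and without any 1 library. Leaving out the low-count filter called 1 member, C3, in ENZ-INHIB against DNC-NONE. With a replicate block the count was also 0 in both comparisons that share replicate numbers. Over all genes the block gave 94 calls for ENZ-NONE against DNC-INHIB (77 on the same 6 libraries without it, 79 with all 12) and 77 for ENZ-INHIB against DNC-NONE (33 and 10). The fits of 6 libraries alone were added after the data were seen. Calls over all genes rose without the low-count filter, when 16399 genes were tested, to 206, 212 and 141 for ENZ-NONE against DNC-NONE, against DNC-INHIB and against ENZ-INHIB, 86 for DNC-NONE against DNC-INHIB, 97 and 213 for ENZ-INHIB against DNC-INHIB and against DNC-NONE, and 72 for the interaction (61, 79, 38, 0, 15, 10 and 17 with it). Among the other settings, calls moved by over 1.5 times to 40 for ENZ-NONE against DNC-NONE, 50 and 51 against DNC-INHIB, 1 or 2 for DNC-NONE against DNC-INHIB, 2 to 24 and 0 to 62 for ENZ-INHIB against DNC-INHIB and DNC-NONE, and 7 to 10 for the interaction. The log2 fold change of C5ar1 in ENZ-NONE against DNC-NONE ran from -0.07 to 0.59 when 1 library was left out, negative only without ENZ-NONE 6. Member differences changed sign in 91 of 1040 recomputed values, the largest of these being that C5ar1 value (0.36). Of the members, 3 were higher in border macrophage-like than microglia-like cells, and 3 again in all other class settings except shares of cells thinned to 2000 UMIs, where 2 were. Depth limits C3 most, with 56 UMIs.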

Other observations

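Likeness to each member was read from Pearson's r of log2(CPM + 1) over the 10 clusters of at least 50 cells, among 3284 genes with a mean of at least 50 CPM. These values are descriptions. The clusters share libraries, and 2 of them, the one holding monocyte-like and neutrophil-like cells and the Cd209a-led one, are low in microglial markers. The genes closest to C1qa were Man2b2 (r = 0.995) and Tgfbr2 (0.993), those closest to C1qb were Tgfbr2 (0.998) and Sec14l1 (0.996), and those closest to C1qc were Tgfbr2 (0.999) and Adrb1 (0.998). Tgfbr2, a receptor chain for TGF-beta, was thus among the top 2 for all 3 chains of C1q.

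For C5ar2, which separated the largest microglia-like cluster from the next 3, the closest genes were Atxn1 (0.98) and Maml2 (0.969). For C5ar1 they were Imp4 (0.973) and Sqstm1 (0.971), and for C3ar1 Mfsd11 (0.977) and Bcl2a1b (0.964). Itgam was closest to Wac (0.99) and Vav1 (0.989), and Itgb2 to Stx7 (0.94) and Tmem165 (0.934).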
